A study of Mus musculus with 6 samples.

Results

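The tricarboxylic acid (TCA) cycle, the reactions that refill it and the carriers that connect it with the cytosol were described from 30 genes measured in eWAT, the visceral fat depot that is attached to the epididymis in male mice. The rule that defines them is a list of symbols with no threshold on a measured value, and all 30 were found among the 55039 genes listed. Every gene of the 30 also passed edgeR's filter on low counts, as did 17296 genes in all. They comprise 12 enzymes and subunits of the cycle in mitochondria, 4 NADP-dependent isocitrate dehydrogenases and cytosolic counterparts, 8 enzymes of anaplerosis and amino group transfer, and 6 carriers of the inner mitochondrial membrane.

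In each turn of the cycle an acetyl group from acetyl-CoA is joined to oxaloacetate and oxidised, and the electrons go to the respiratory chain. Intermediates that leave the cycle are replaced by anaplerosis, by pyruvate carboxylation, by glutamate dehydrogenation and by the transfer of amino groups to and from glutamate. White adipocytes export citrate to the cytosol, where it yields acetyl-CoA for fatty acid synthesis, and they return the carbon as malate and pyruvate. Exchange carriers such as the dicarboxylate, oxoglutarate and aspartate/glutamate carriers move these acids across the inner membrane, and the mitochondrial pyruvate carrier lets pyruvate in.

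The tissue came from 6 male C57BL/6 mice, aged 6 to 7 weeks when the experiment began. In the cachexia group (CAC), 3 mice had received Lewis lung carcinoma (LLC) cells, a mouse lung tumor line, under the skin of the lower back, and in the control group (CONT) 3 mice had received only phosphate-buffered saline (PBS). Fat was taken 28 days after the injection, and poly(A) RNA of the whole pad of each mouse gave 1 library, so that all cell types of the pad are in it. The tumor came from 1 transplanted cell line, and the sources used here name no transgene.

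The libraries held 15713794 to 20638492 reads on genes in CONT and 22829269 to 25926425 in CAC. Levels are given as CPM, read counts scaled to edgeR's TMM-adjusted library size (counts per 1000000), in the order of replicates 1, 2 and 3. A level of 1 CPM stood for 11.3 to 26.7 reads. CONT replicate 1 stood apart from the rest: genes of the mitochondrial genome took 30.2% of its reads, against 3.89% to 5.04% in the other 5 libraries, and values without it are given beside some of the results below. The summed level of 9 adipocyte markers was 14888 to 35109 CPM in CONT and 11522 to 28465 CPM in CAC. Of the 9, 3 had a higher and 6 a lower level in CAC, all with overlapping groups. Adipoq and Plin1 were at 772 CPM or more in every library. Lep, the leptin gene, was at 692, 406 and 410 CPM in CONT and 507, 3.96 and 0.412 CPM in CAC. The summed level of 5 B cell markers was 32.3 to 85.0 CPM in CONT and 7.19 to 18.2 CPM in CAC. That of 7 macrophage markers was 626, 1703 and 1697 CPM in CONT and 1201, 759 and 998 CPM in CAC. In that sum only CONT replicate 1 lay below the CAC libraries. Of the 7, 6 had a lower level in CAC and only Cd14 a higher one, at 20.2, 35.4 and 48.5 CPM in CONT and 71.4, 69.5 and 96.4 CPM in CAC. Of 8 epididymal markers, the sum was 201, 13.8 and 10868 CPM in CONT and 0, 0.040 and 15.9 CPM in CAC. The sum of 6 endothelial markers was 1683, 1027 and 1178 CPM in CONT and 1779, 1402 and 1693 CPM in CAC. That of 8 skeletal muscle markers was 122, 47.5 and 41.0 CPM in CONT and 78.9, 17.6 and 16.3 CPM in CAC. Of these 2 lists Flt1, Myh4 and Atp2a1 lay above CONT in every CAC library, and the others overlapped. The part of these other cells in the results below was not tested, and in whole tissue fewer cells of a type and less RNA per cell cannot be told apart.

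Of the 30 genes, 18 had a higher level in CAC and 12 a lower one. Their median log2 fold change (CAC over CONT) was 0.15. Over all genes tested the median was -0.06, and 45.9% had a log2 fold change above 0. By edgeR's quasi-likelihood test with Benjamini-Hochberg adjustment over all genes, 0 of the 30 had an adjusted p under 0.05 (0.0% of all genes did), and the smallest adjusted p was 0.215. DESeq2, the count tool of the study, placed 6 of the 30 under an adjusted p of 0.05, where 5.62% of all genes were called. The 6 were Gpt2, Glud1, Slc25a10, Idh1, Idh3g and Fh1. Limma-voom with sample weights also called 6, against 5.53% of all genes. At an unadjusted p under 0.05 in edgeR's test there were 14, of which 11 were higher in CAC (6.31% of all genes) and 3 lower (6.95% of all genes). In 14 genes the 3 CAC libraries all lay above the 3 CONT libraries (11.8% of all genes), and in 3 they all lay below (10.7% of all genes).

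These counts moved with single libraries. The 11 genes became 2 without CONT replicate 2 (4.0% of all genes), 6 without CONT replicate 3 (5.0%), 4 without CAC replicate 2 (3.55%) and 2 without CAC replicate 3 (3.84%). The 3 lower genes became 1 without CAC replicate 2 (3.69% of all genes) and 1 without CAC replicate 3 (4.47%). With an offset for gene length in the edgeR fit the split was 9 higher (8.22% of all genes) and 1 lower (4.76%) in place of 11 and 3. Without CONT replicate 1 the median was 0.26, and DESeq2 called 12 of the 30, where 11.0% of all genes were called. In edgeR's test 13 of the 30 then had an unadjusted p under 0.05 (15.6% of all genes), and the CAC libraries lay above both remaining controls in 15 (18.1%) and below them in 5 (19.6%). Gpt2, Glud1 and Slc25a10 were the 3 genes with an unadjusted p under 0.05 in every fit that left out 1 of the 6 libraries. The share of all genes that kept it in every such fit is not given here, so this number has no background.

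**Figure D1:**
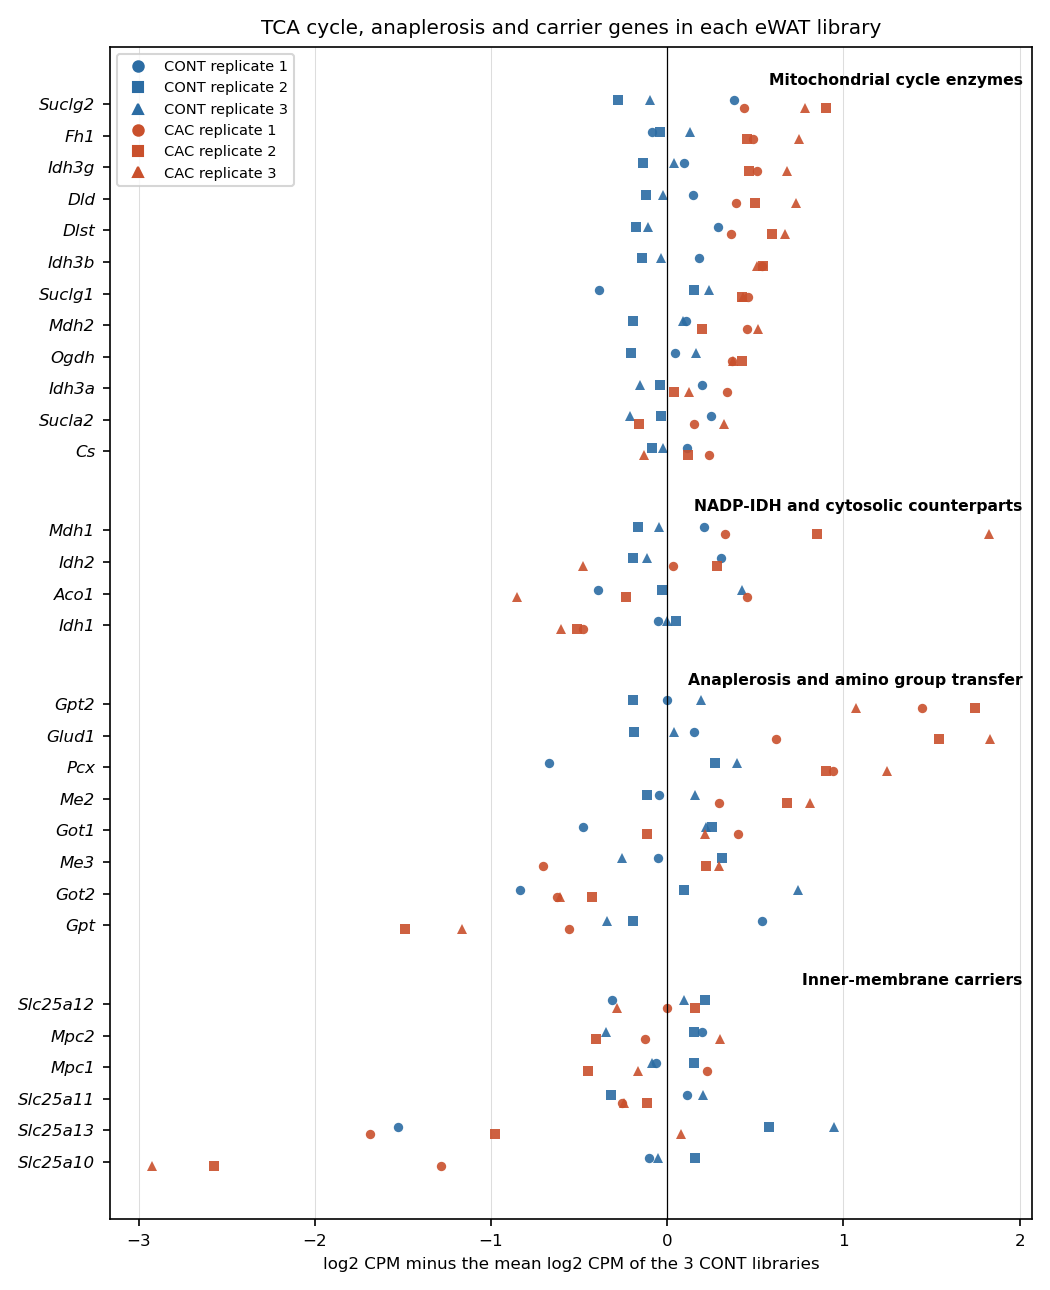
Each row is a gene and each point a library, placed at its log2 CPM minus the mean log2 CPM of the 3 CONT libraries; blue marks CONT, red CAC, and circle, square and triangle are replicates 1, 2 and 3. The CAC points of 9 of the 12 mitochondrial cycle enzymes lie to the right of all CONT points, those of Gpt2 lie farther right still, and those of Slc25a10 lie to the left of all CONT points.

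All 12 mitochondrial cycle enzymes had a higher mean level in CAC, with log2 fold changes from 0.08 for citrate synthase (Cs) to 0.69 for Suclg2 and a median of 0.47, and each of the 12 kept this direction under every alternative tried. In 9 of the 12 the CAC libraries lay above the CONT libraries (11.8% of all genes), in 0 below (10.7%) and in 3 they overlapped. An unadjusted p under 0.05 was reached by 6 of them (6.31% of all genes were higher at that p): Suclg2, Fh1, Idh3g, Dld, Dlst and Idh3b. The largest of the 12 changes, that of Suclg2, was 1.62-fold.

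Isocitrate dehydrogenase 3 is the NAD-dependent enzyme of the cycle, built from the catalytic subunit Idh3a and the subunits Idh3b and Idh3g. Idh3b stood at 207, 165 and 178 CPM in CONT and 265, 266 and 259 CPM in CAC. The 3 CAC libraries lay within 6.70 CPM of each other and above all CONT libraries, and the log2 fold change with its standard error (SE) was 0.52 (SE 0.19). Idh3g was at 134, 114 and 129 CPM in CONT and 179, 174 and 202 CPM in CAC, again without overlap, and its log2 fold change was 0.55 (SE 0.18). Idh3a, at 183, 155 and 143 CPM in CONT and 202, 164 and 174 CPM in CAC, overlapped between the groups, as CONT replicate 1 lay above CAC replicates 2 and 3. Its log2 fold change was 0.16, and 0.28 without CONT replicate 1, when the groups no longer overlapped. Without CONT replicate 3 the value for Idh3a was 0.10. Idh3b overlaps Nop56 on the opposite strand, whose reads amounted to 16.2% of those of Idh3b. Nop56 had a log2 fold change of 0.20 (SE 0.29).

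The oxoglutarate dehydrogenase complex consists of Ogdh, Dlst and Dld, and Dld also serves the pyruvate and branched-chain ketoacid dehydrogenases. Dlst stood at 218, 159 and 166 CPM in CONT and 230.3, 271 and 285 CPM in CAC. CONT replicate 1 was the highest control and came close to CAC replicate 1, and the log2 fold change of 0.53 became 0.70 without that control. Dld was at 205, 171 and 183 CPM in CONT and 244, 262 and 308 CPM in CAC, with every CAC library above every CONT library and a log2 fold change of 0.54 (SE 0.20). Ogdh, at 319, 268 and 346 CPM in CONT and 399, 415 and 401 CPM in CAC, did not overlap either, and its log2 fold change of 0.38 had an unadjusted p of 0.116 in edgeR's test.

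Succinyl-CoA synthetase pairs a common subunit, Suclg1, with either Suclg2, which gives the GTP-forming enzyme, or Sucla2, which gives the ATP-forming enzyme. Suclg2 was at 83.4, 52.7 and 59.9 CPM in CONT and 86.6, 119.8 and 110.4 CPM in CAC. CAC replicate 1 lay just above CONT replicate 1, while the other CAC libraries stood well above all controls. Its change on the log2 scale was 0.69 (SE 0.24), and 0.92 without CONT replicate 1. Sucla2, at 126, 104 and 92.2 CPM in CONT and 119, 95.3 and 133 CPM in CAC, overlapped, with a log2 fold change of 0.11, or 0.25 without that control and 0.0021 without CAC replicate 3. Suclg1, at 56.7, 82.2 and 87.1 CPM in CONT and 102, 99.3 and 99.7 CPM in CAC, had the least variable CAC libraries of the 30 genes, with a coefficient of variation of 1.27%, all of them above CONT. Its log2 fold change of 0.41 was 0.26 without CONT replicate 1, the lowest control. A copy of Suclg2, Gm15163, is 98.9% identical over 1302 bases and held 684 reads, 5.92% of those of Suclg2. Gm15163 itself had a log2 fold change of 0.73 (SE 0.34).

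Fumarase, encoded by Fh1, stood at 98.2, 101 and 114 CPM in CONT and 146, 143 and 175 CPM in CAC. All CAC libraries lay above all CONT libraries, and the log2 fold change was 0.57 (SE 0.18) with an adjusted p of 0.299 by edgeR's quasi-likelihood test and of 0.0330 by DESeq2. Mdh2, the malate dehydrogenase of mitochondria, was at 259.6, 211 and 256 CPM in CONT and 330.2, 277 and 345 CPM in CAC, without overlap and with a log2 fold change of 0.39. Cs, the entry enzyme, was at 415, 362 and 377 CPM in CONT and 452, 418 and 350.0 CPM in CAC, with overlapping groups. Its log2 fold change was 0.08, or 0.15 without CONT replicate 1, 0.04 without CAC replicate 1 and 0.19 without CAC replicate 3.

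**Figure D2:**
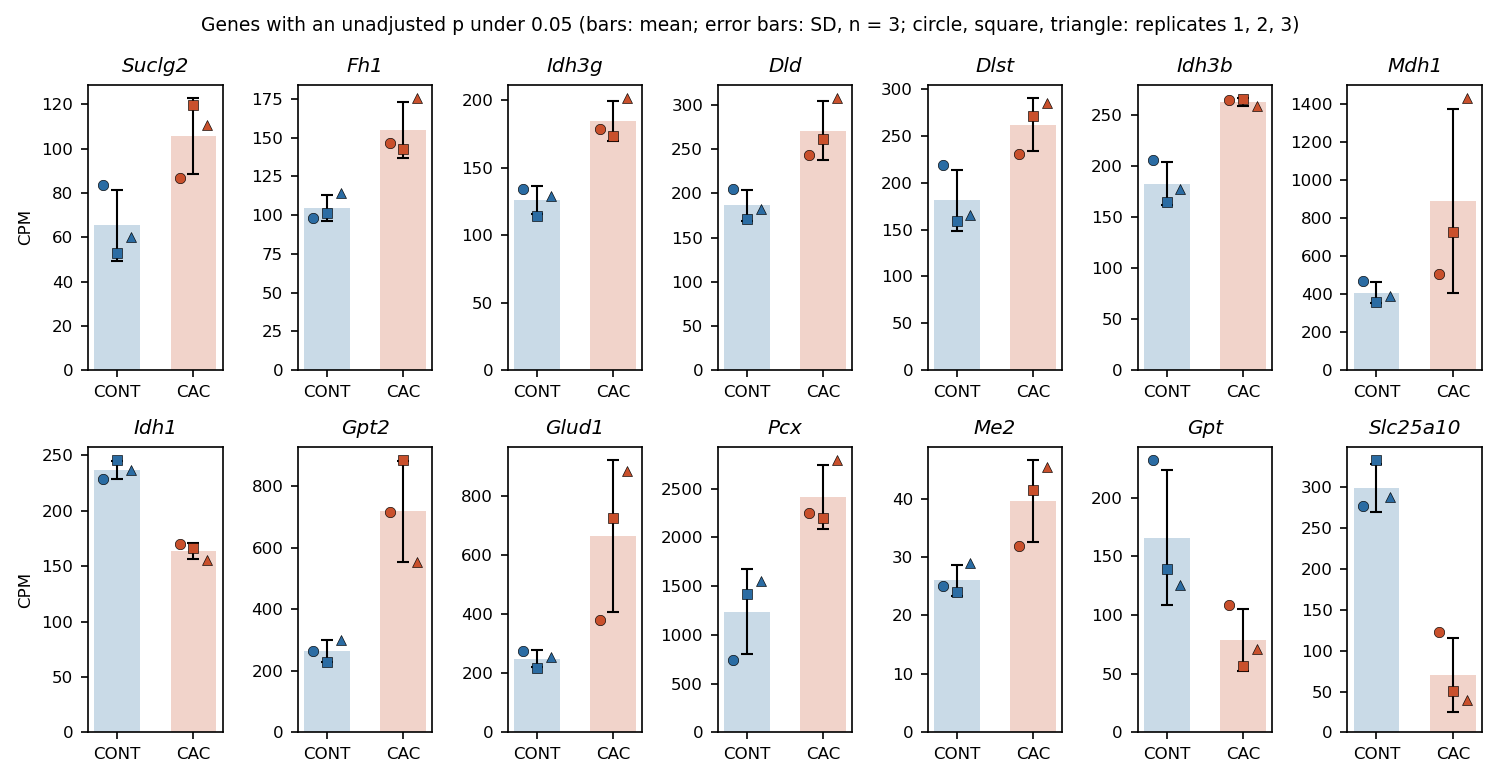
The 14 genes with an unadjusted p under 0.05 in edgeR's test are shown in CPM on linear axes that start at 0; bars are means, error bars are SDs of 3 libraries, and points are libraries. The 6 cycle enzymes differ by less than the 2.71-fold of Gpt2, and the CAC libraries of Mdh1, Glud1 and Slc25a10 are widely spread.

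Among the NADP-dependent isocitrate dehydrogenases and the cytosolic counterparts of cycle enzymes, Mdh1 was higher in CAC, Idh1 was lower, and Idh2 and Aco1 overlapped between the groups. Mdh1 encodes cytosolic malate dehydrogenase, a part of the malate-aspartate shuttle. It stood at 468, 361 and 392 CPM in CONT and 507, 729.8 and 1432 CPM in CAC. The 3 controls were close together, whereas CAC replicate 3 was at 2.82 times CAC replicate 1, which itself lay just above the highest control. This gave a log2 fold change of 1.13 (SE 0.42), and it was 0.61 without CAC replicate 3, with an unadjusted p of 0.0999 in edgeR's test.

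Idh1, the NADP-dependent enzyme of cytosol and peroxisomes, was at 229, 246 and 236 CPM in CONT and 169.8, 166 and 156 CPM in CAC. Each group varied little, with coefficients of variation of 3.56% and 4.43%, and the groups did not overlap. For Idh1 the log2 fold change was -0.53 (SE 0.18), with an adjusted p of 0.305 by edgeR's quasi-likelihood test and of 0.00473 by DESeq2. The unadjusted p in edgeR's test was above 0.05 without CONT replicate 2 or 3 and without CAC replicate 2 or 3. With the offset for gene length Idh1 had -0.36, with an unadjusted p of 0.156 in edgeR's test. Idh2, its counterpart in mitochondria, stood at 151, 107 and 113 CPM in CONT and 125, 148 and 87.4 CPM in CAC. The groups overlapped in full, and the log2 fold change of -0.04 was 0.14 without CONT replicate 1. Aco1, which is cytosolic aconitase and also iron regulatory protein 1, was at 168, 216 and 295 CPM in CONT and 301, 187 and 122 CPM in CAC, and CAC replicate 1 held the highest and CAC replicate 3 the lowest of the 6 values. Its log2 fold change of -0.15 became 0.12 without CAC replicate 3 and -0.32 without CONT replicate 1.

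The largest changes toward CAC lay in anaplerosis and amino group transfer, where 4 of 8 genes had CAC libraries above CONT (11.8% of all genes), 1 below (10.7%) and 3 overlapping. Gpt2 (ENSMUSG00000031700, chr8:85492576-85527560 in GRCm38, plus strand) encodes mitochondrial alanine aminotransferase, which interconverts alanine and pyruvate while glutamate and oxoglutarate exchange the amino group. It stood at 263, 230.0 and 300.3 CPM in CONT and 716, 883 and 553 CPM in CAC. The lowest CAC library, replicate 3, was 1.84 times the highest control, replicate 3. Mean levels were 264 ± 35.2 CPM for the control mice and 717 ± 165 CPM for the CAC mice (each SD, n = 3), or 2.71-fold. The log2 fold change was 1.44 (SE 0.27), with an unadjusted p of 0.00137 and an adjusted p of 0.215 by edgeR's quasi-likelihood test, and it ran from 1.28 to 1.61 with 1 library left out.

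Gpt (ENSMUSG00000022546, chr15:76695716-76699686, plus strand), the cytosolic alanine aminotransferase, went the other way, at 232, 139.6 and 126 CPM in CONT and 108, 56.9 and 71.2 CPM in CAC. CONT replicate 1 was the highest library, and CAC replicate 1, the highest in its group, lay just under CONT replicate 3. On the log2 scale the change was -1.07 (SE 0.35), and -0.74 without CONT replicate 1, with an unadjusted p of 0.0595 in edgeR's test.

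Glud1 (ENSMUSG00000021794, chr14:34310727-34345265, plus strand) encodes glutamate dehydrogenase, which turns glutamate into oxoglutarate and ammonium. Its level was 277, 218 and 255 CPM in CONT and 382, 725 and 886 CPM in CAC. As for Mdh1, the controls were tight and the CAC libraries spread over a 2.32-fold range, with replicate 1 nearest to CONT. The log2 fold change was 1.41 (SE 0.35), and every fit that left out 1 library kept it between 1.16 and 1.73. The adjusted p was 0.250 by edgeR's quasi-likelihood test and 0.00515 by DESeq2. The summed level of 8 markers of brown or beige adipocytes was 25.6 to 42.0 CPM in CONT and 25.7 and 98.5 CPM in CAC replicates 1 and 2 and higher again in CAC replicate 3, and Ucp1, the defining gene, had 0 to 6 reads in every library. Of the 6 markers that passed the filter, 3 had this order of CAC libraries, and Cox7a1 was lower in CAC than in CONT without overlap, at 5.93, 3.48 and 2.02 CPM in CONT and 1.06, 0.881 and 1.42 CPM in CAC. Their part in the levels of Mdh1 and Glud1 was not tested.

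Pcx (ENSMUSG00000024892, chr19:4510472-4621752, plus strand), pyruvate carboxylase, makes oxaloacetate from pyruvate and had the highest mean FPKM (counts per gene length) of the 30 genes in either group, although Mdh1 exceeded it in CONT replicate 1. It was at 738, 1421 and 1549 CPM in CONT and 2254, 2198 and 2789.9 CPM in CAC. CONT replicate 1 was far below the other controls, but every CAC library exceeded all 3. Its log2 fold change of 0.97 (SE 0.37) was 0.71 without CONT replicate 1.

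Me2 is the NAD-dependent malic enzyme of mitochondria, which makes pyruvate from malate. It stood at 25.1, 23.9 and 28.9 CPM in CONT and 31.8, 41.4 and 45.4 CPM in CAC, without overlap and with a log2 fold change of 0.61 (SE 0.20). Me3, the NADP-dependent form of mitochondria, was scarce, with 21, 55 and 36 reads in CONT and 29, 56 and 63 reads in CAC, and its groups overlapped at a log2 fold change of -0.02 (SE 0.46).

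The aspartate aminotransferases Got1 of the cytosol and Got2 of mitochondria exchange amino groups between aspartate and glutamate. Got1 was at 7.25, 12.0 and 11.7 CPM in CONT and 13.3, 9.33 and 11.7 CPM in CAC, with overlap and with a log2 fold change of 0.14 (SE 0.31), or -0.04 without CONT replicate 1. Got2 was at 31.1, 59.2 and 92.7 CPM in CONT and 36.0, 41.3 and 36.4 CPM in CAC. The CAC libraries were tight, whereas the controls covered a 2.98-fold range, and CONT replicate 1 lay below all CAC libraries. The log2 fold change of -0.69 was -0.99 without CONT replicate 1 and -0.24 without CONT replicate 3, the library with the high epididymal markers. In the former case the groups did not overlap and the unadjusted p was 0.00792 in edgeR's test.

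The 6 carriers of the inner membrane had negative log2 fold changes in the edgeR fit, with a median of -0.16, but those of Slc25a12 and Mpc2 were above 0 without the filter on low counts, that of Mpc1 was above 0 with an offset for gene length, and those of all 3 also crossed 0 when single libraries were left out. Slc25a10 was the only carrier of the 6 whose groups did not overlap or whose unadjusted p was under 0.05, where 10.7% of all genes lay below CONT without overlap and 6.95% were lower at that p. Slc25a10 (ENSMUSG00000025792, chr11:120491840-120499187, plus strand), the dicarboxylate carrier, exchanges malate or succinate for phosphate. Its level was 278, 333 and 288 CPM in CONT and 123, 50.2 and 39.3 CPM in CAC. The lowest control was at 2.26 times the highest CAC library, replicate 1, and CAC replicates 2 and 3 were lower still. Mean levels were 299.6 ± 29.6 CPM for the control mice and 70.8 ± 45.4 CPM for the CAC mice (each SD, n = 3), and the CAC mean was 0.236 of the CONT mean. The log2 fold change was -2.08 (SE 0.46), with an unadjusted p of 0.00305 and an adjusted p of 0.228 by edgeR's quasi-likelihood test, and an adjusted p of 0.000916 by DESeq2. With 1 library left out the log2 fold change ran from -2.69 to -1.78, the lower bound being without CAC replicate 1.

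Slc25a12 and Slc25a13, the aspartate/glutamate carriers aralar and citrin, give out aspartate from mitochondria in exchange for glutamate. Slc25a12 was at 15.5, 22.3 and 20.5 CPM in CONT and 19.2, 21.4 and 15.8 CPM in CAC, with overlap and with a log2 fold change of -0.05, or -0.17 without CONT replicate 1. It shares 247 bases at 99.6% identity with Adpgk, which held 4099 reads against 2575, so that its count is uncertain. Slc25a13 had 17, 149 and 186 reads in CONT and 33, 55 and 122 reads in CAC. CONT replicate 1, with 17 reads, was as low as CAC replicate 1, and the log2 fold change of -1.01 (SE 0.74) became -1.44 without that control, when the groups no longer overlapped. It was -0.55 without CONT replicate 3 and -1.61 without CAC replicate 3.

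Mpc1 and Mpc2 together form the mitochondrial pyruvate carrier. Mpc1 stood at 36.5, 42.4 and 36.0 CPM in CONT and 44.7, 27.9 and 34.1 CPM in CAC, and Mpc2 at 199, 193 and 137 CPM in CONT and 159, 131 and 214 CPM in CAC. Both overlapped between the groups, with log2 fold changes of -0.11 (SE 0.22) and -0.07 (SE 0.27). The count of Mpc1 is uncertain, because its processed pseudogene Mpc1-ps is identical over 261 bases and held 12721 reads against 4900. Mpc1-ps itself had a log2 fold change of -0.04. Slc25a11, the oxoglutarate/malate carrier, ranged from 69.2 to 99.3 CPM in CONT and from 72.2 to 79.7 CPM in CAC. Its gene overlaps Rnf167 on the opposite strand, which held 63.4% as many reads.

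**Figure D3:**
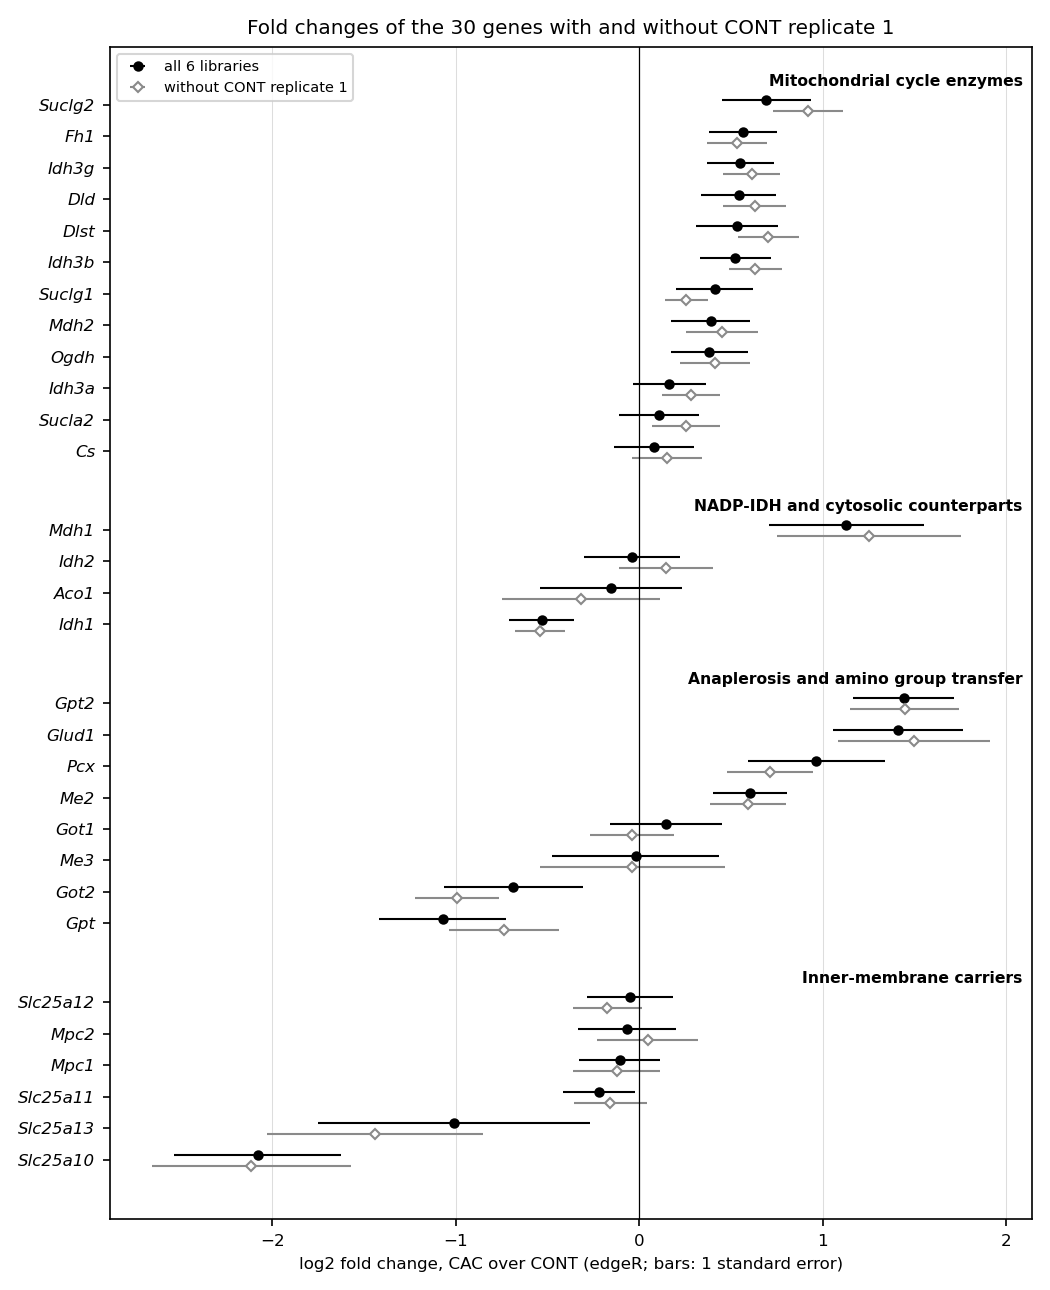
Points are log2 fold changes (CAC over CONT) of the 30 genes by edgeR and bars are 1 standard error; filled circles use all 6 libraries and open diamonds leave out CONT replicate 1. With all 6 libraries Slc25a10 at -2.08 and Gpt2 at 1.44 are the extremes, and leaving out CONT replicate 1 turns the direction of Idh2, Got1 and Mpc2, whose bars cross 0 in both fits.

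Genes of the same reaction in different compartments, or subunits of the same enzyme, were compared by their log2 ratio within each library, which does not depend on how libraries are scaled. In 4 of 10 such ratios the groups did not overlap. None of the 10 could pass a threshold of 0.05, since an exact two-sided permutation test of 3 against 3 libraries gives no p under 0.1, and the smallest p adjusted over the 10 ratios was 0.25.

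The balance of cytosolic to mitochondrial alanine aminotransferase differed most. The log2 ratio of Gpt to Gpt2 was -0.18, -0.72 and -1.25 in CONT and -2.72, -3.96 and -2.96 in CAC, a mean difference of -2.50 (exact two-sided permutation p = 0.1). The highest CAC library lay 1.47 below the lowest control, and with 1 library left out the difference ran from -2.76 to -2.12. Per length, Gpt was at 0.805 to 1.69 times the FPKM of Gpt2 in CONT and at 0.124 to 0.290 times in CAC.

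Within the succinyl-CoA synthetases, the log2 ratio of Suclg2 to Sucla2 was -0.60, -0.98 and -0.62 in CONT and -0.45, 0.33 and -0.27 in CAC, a difference of 0.60, which was 0.37 without CAC replicate 2. The ratio of Idh3b to Idh3a was 0.18, 0.09 and 0.31 in CONT and 0.39, 0.70 and 0.57 in CAC, a difference of 0.36. Me2 to Me3 did not overlap either, with a difference of 0.66, but Me3 rested on 21 to 63 reads per library.

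The other 6 ratios overlapped between the groups. The differences were -0.47 for Idh1 to Idh2, 0.61 for Mdh1 to Mdh2, 0.72 for Got1 to Got2, 0.82 for Slc25a12 to Slc25a13, 0.39 for Idh3g to Idh3a and -0.05 for Mpc1 to Mpc2. Mdh1 to Mdh2 was lower in CAC replicate 1 than in 2 of the controls and higher than all of them in CAC replicates 2 and 3. Without CAC replicate 3 the difference for Mdh1 to Mdh2 was 0.26, and without CAC replicate 1 it was 0.98. That for Idh1 to Idh2 was -0.32 without CAC replicate 2, and that for Got1 to Got2 was 0.46 without CONT replicate 3. The difference for Slc25a12 to Slc25a13 was 1.43 without CONT replicate 1, 0.39 without CONT replicate 3, 0.38 without CAC replicate 1 and 1.41 without CAC replicate 3. The log2 ratio of the pyruvate carrier's subunits, Mpc1 to Mpc2, ran from -2.65 to -1.83 over the 6 libraries.

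**Figure D4:**
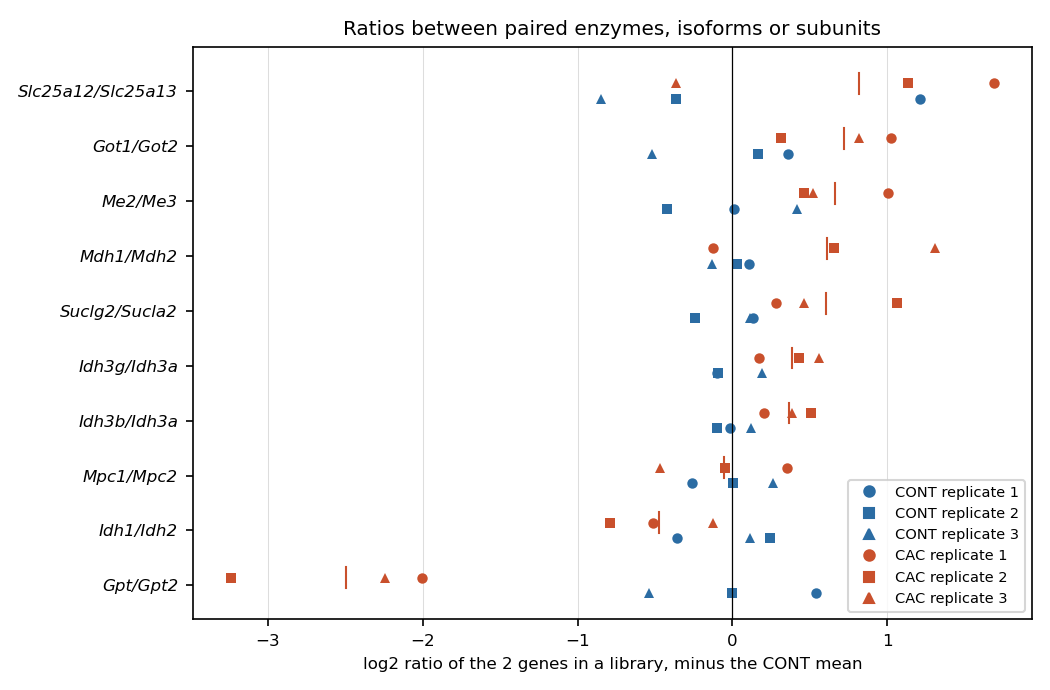
Each row is the log2 ratio of 2 genes within a library, minus the mean of that ratio in CONT; blue marks CONT, red CAC, symbols are replicates as labelled, and the vertical red tick is the CAC mean. The CAC points of Gpt/Gpt2 lie left of all controls, and the tick of Mpc1/Mpc2 lies at -0.05.

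Levels of different genes were compared as FPKM, which divides by gene length. In CONT the order of the means began with Pcx at 216 FPKM, Mdh1 at 129 FPKM and Slc25a10 at 70.3 FPKM, and Idh1 followed at 69.3 FPKM, which differed from Slc25a10 by less than the SD of 6.41 FPKM. In CAC Pcx and Mdh1 again led, at 429 and 285 FPKM, followed by Glud1 at 129.8 FPKM and Gpt2 at 105 FPKM. Glud1 was in place 7 of 30 in CONT and in place 3 in CAC, and Gpt2 in places 14 and 4. Slc25a10 went from place 3 in CONT to place 23 in CAC, at 16.9 FPKM. It was in place 3 or 4 in each CONT library and in places 17, 24 and 25 in the CAC libraries. The 4 least abundant genes were Got1, Slc25a12, Slc25a13 and Me3 in each of the 6 libraries, and Me3 had a mean of 0.108 FPKM in either group.

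**Figure D5:**
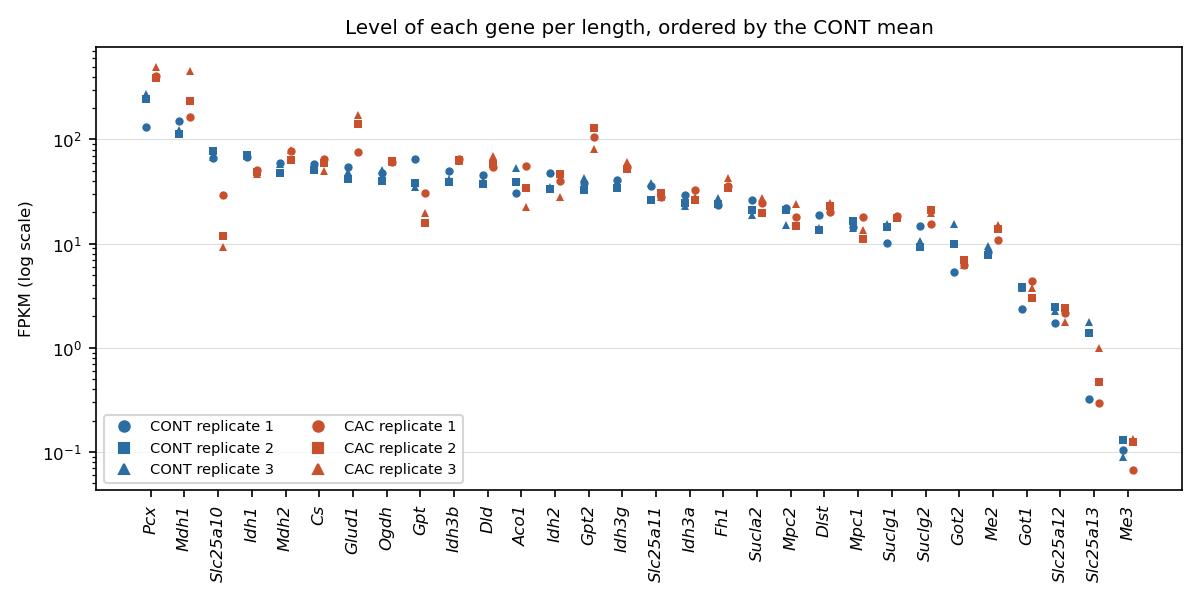
Points are FPKM of the 30 genes in each library on a log scale, with genes in the order of their CONT mean; blue marks CONT and red CAC. Slc25a10 drops out of the abundant genes in CAC, at 9.35 to 29.5 FPKM against 65.7 to 77.6 FPKM in CONT, and Me3 is the lowest gene in each library.

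Of 45 other genes of the same pathways that passed the filter, 27 were higher and 18 lower in CAC, and their median change was 0.23 on the log2 scale. By edgeR's quasi-likelihood test, 0 had an adjusted p under 0.05, while 10 higher (against 6.31% of all genes) and 6 lower genes (6.95%) had an unadjusted p under 0.05, and DESeq2 called 8 (5.62%). In 12 of the 45, or 26.7%, the CAC libraries lay above CONT, against 11.8% of all genes, and in 4, or 8.9%, below, against 10.7%. Of the 16 genes with an unadjusted p under 0.05, 6 kept it in every fit that left out 1 library: Sdha, Glul, Mut, Me1, Slc25a20 and Slc25a22. Here too the share of all genes that kept it is not given.

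Sdha and Sdhb, the catalytic subunits of succinate dehydrogenase, had log2 fold changes of 0.83 and 0.58. Sdha was at 410.0, 455 and 546 CPM in CONT and 768, 885 and 865 CPM in CAC, without overlap. The membrane anchors of that enzyme overlapped, with -0.24 for Sdhc, which was 0.25 without CONT replicate 1, and 0.19 for Sdhd, which was 0.51 without it and 0.051 without CONT replicate 2. Without CONT replicate 1 the CAC libraries of Sdhd lay above both remaining controls, with an unadjusted p of 0.0138 in edgeR's test.

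Of the other genes that feed or drain the cycle, Glul, glutamine synthetase, was at 1131, 2077 and 1797 CPM in CONT and 3713, 4637 and 3660.1 CPM in CAC, with a log2 fold change of 1.26 (SE 0.36). Mut, methylmalonyl-CoA mutase, which makes succinyl-CoA, had 1.03 (SE 0.24). Both lay above CONT in every CAC library. On the lipogenic side, Acly, ATP citrate lyase, was at 307, 1145 and 705 CPM in CONT and 269, 274 and 276 CPM in CAC, and Me1, cytosolic malic enzyme, at 694, 672 and 481 CPM in CONT and 367, 199.6 and 337 CPM in CAC. Neither overlapped, with log2 fold changes of -1.40 (SE 0.47) and -1.03 (SE 0.32). In Acly the CAC libraries hardly differed while the controls varied, and CONT replicate 1 was the nearest to CAC. The log2 fold change of Acly was -1.74 without it and -0.89 without CONT replicate 2, and its unadjusted p was above 0.05 in every fit that left out a library other than CONT replicate 1.

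Among other carriers, Slc25a20, which exchanges carnitine and acylcarnitine, had a log2 fold change of 0.93 (SE 0.23), Slc25a22, a glutamate carrier, of 0.70, and Slc25a5, an ADP/ATP carrier, of 0.68. Slc25a1, the citrate carrier, stood at 553, 511 and 419 CPM in CONT and 378, 292 and 286 CPM in CAC, below CONT in every CAC library and with a log2 fold change of -0.63 (SE 0.24). Slc25a18, another glutamate carrier, had -1.46 at levels of at most 1.78 CPM. Of the 12 other carriers tested, 3 were higher (6.31% of all genes) and 2 lower (6.95%) at an unadjusted p under 0.05 in edgeR's test.

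Of the side reactions, Adhfe1, a hydroxyacid-oxoacid transhydrogenase that uses oxoglutarate, had a log2 fold change of 0.68. Dhtkd1, a relative of Ogdh for oxoadipate, had 1.20, or 0.93 without CONT replicate 1, and Ogdhl, a relative of Ogdh itself, had -2.08 (SE 0.86), at 1.503, 15.8 and 6.77 CPM in CONT and 0.937, 2.48 and 2.28 CPM in CAC. CONT replicate 1 was the only control that overlapped with CAC, and with 1 library left out the log2 fold change of Ogdhl ran from -2.54 without CONT replicate 1 to -1.13 without CONT replicate 2. Its unadjusted p was under 0.05 in the first of these fits and in no other that left out a library. Nnt, the NADPH-forming transhydrogenase of the inner membrane, was at 0.337 to 0.852 CPM in all 6 libraries.

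Regulators of mitochondrial genes mostly overlapped. Gabpa, the DNA-binding part of GABP, which activates many nuclear genes of mitochondria, was at 38.0, 41.0 and 44.5 CPM in CONT and 54.0, 59.9 and 62.4 CPM in CAC, with every CAC library above every control and a log2 fold change of 0.51 (SE 0.16). Esrrg, an estrogen-related receptor, had -2.22 (SE 0.87), at 0.619, 5.60 and 3.59 CPM in CONT and 0.733, 1.08 and 0.2996 CPM in CAC. Again only CONT replicate 1 overlapped with CAC, and the value ran from -2.68 without that control to -1.59 without CONT replicate 2. An unadjusted p under 0.05 was likewise kept in the former fit alone. Ppargc1a, a coactivator of such genes, had 0.60 (SE 0.62), and Esrra -0.02 (SE 0.25). Both changed direction with single libraries, and leaving out CAC replicate 2 gave -0.24 for Ppargc1a and -0.22 for Esrra, the lowest values. The highest were 1.00 for Ppargc1a, with CONT replicate 2 left out, and 0.20 for Esrra, with CAC replicate 1 left out.

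The promoter windows of the 30 genes were searched for the motifs of such factors in RefSeq sequences of GRCm38.p6, which run from 250 bases before to 50 bases after each transcript start. Windows were found for 27 of the 30 genes, 35 in all, and both strands were read. CCGGAAG, the core to which GABP and other ETS factors bind, was present for 5 of the 27 genes (18.5%): Dlst, Glud1, Idh3b, Idh3g and Mpc1. Of the 12078 tested genes with a window, 17.9% held it, so that the share did not stand out. TNAAGGTCA, the motif of estrogen-related receptors, was in 0 of the 27 (0.98% of tested genes). Exact matches to the palindromic NRF1 motif (2.07% of tested genes) and to DR1, a direct repeat read by nuclear receptors such as PPARs (0.04%), were also in 0. The matches before the start of Glud1, at chr14:34310480-34310526 on the plus strand, and of Idh3g, at chrX:73786975-73787021 on the minus strand, are printed because they lie wholly before the start and the CAC libraries of both genes lay above CONT; capitals mark the motif, which begins at position -227 in Glud1 and -104 in Idh3g relative to the start, and in Glud1 it is read on the opposite strand.
Glud1: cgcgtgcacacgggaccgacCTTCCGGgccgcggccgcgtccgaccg
Idh3g: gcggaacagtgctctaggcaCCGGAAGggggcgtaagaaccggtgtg
A match is a description of the sequence, and binding was not measured.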

How the data were processed

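Whole-pad eWAT RNA of 3 CAC and 3 CONT mice was sequenced as 1 poly(A) library per mouse, and the labels of the samples gave the groups. The authors deposited raw read counts per gene, aligned with HISAT2 2.0.5 to Ensembl release 94 and, per the submitters' processing notes, counted with featureCounts 1.5.0-p3. Strand use in counting is not given in the sources used here. The authors also deposited FPKM values, which rest on the same counts, on gene length and on library totals of 13817709 to 32509179 that are not the sums of the counts. Coordinates are those of GRCm38 in the deposited table.

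Counts were tested in R 4.3.3 with edgeR 4.0.16 (quasi-likelihood, robust, TMM, filterByExpr, Benjamini-Hochberg over 17296 genes) with condition as the only term, after a check of the script on simulated data. Alternatives were DESeq2 1.42.0, voom with sample weights and limma 3.58.1 on log2(FPKM + 1) or log2(FPKM + 0.1), for which an FPKM of at least 0.5 in 3 libraries was required; other normalizations and filters; a gene length offset; the replicate number as a block; and each library left out. Fold changes on the FPKM scale understate low genes. Within groups, pairs of libraries gave a chi-square per degree of freedom of 49.9 to 415, above counting noise. Ratios of gene pairs were compared with exact permutation tests in SciPy 1.17.1. Copies were sought with BLAST in GENCODE M21 transcripts (at least 95% identity over 150 bases). Counting error was widest for Me3, with 21 to 63 reads per library.

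The genes, lists, pairs and tests were chosen with earlier results of these data known, although the rule for the 30 genes used symbols only. Values in every library are given for genes with an unadjusted p under 0.05, the largest change of each role group, both genes of each pair and genes with a log2 fold change under -0.5; others are given by range or in every library, and other pathway genes are named at an unadjusted p under 0.05. Cs, Ogdh, Suclg1, Slc25a11, the remaining Sdh subunits, Nnt, Ppargc1a and Esrra are named outside that rule, to complete a complex or a pathway step. Some other pathway genes, and a ratio that involved 1 of them, are not reported here.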

Additional observations from a re-analysis of the deposited data

How the results depend on the processing

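Of 568 log2 fold changes of the 30 genes under 19 alternatives, 542 kept their direction and 26 reversed, in 7 genes. An adjusted p under 0.05 was reached by 6 genes with DESeq2 and 6 with voom with sample weights, and since few alternatives placed any gene under it, staying above it says nothing of stability. The other 23 genes kept their direction throughout. Where values differed, the cause was not tested.

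Reversed values were 0.016 for Me3 with TMM computed without mitochondrial genome genes. Without the filter on low counts they were 0.036 for Idh2, 0.033 for Slc25a12, 0.012 for Mpc2 and 0.063 for Me3. DESeq2 gave 0.0091 for Me3. Voom gave -0.18 for Got1, 0.21 for Idh2 and 0.033 for Me3. The gene length offset gave 0.12 for Idh2 and 0.10 for Mpc1. With 1 library left out, ranges that crossed 0 were -0.041 to 0.28 for Got1, -0.21 to 0.15 for Idh2, -0.27 to 0.10 for Mpc2, -0.17 to 0.072 for Slc25a12, -0.18 to 0.29 for Me3, -0.50 to 0.12 for Aco1, -0.26 to 0.054 for Mpc1 and -0.26 to 0.15 for the log2 ratio of Mpc1 to Mpc2. That ratio was above 0 when replicate 3 of either group was left out. All other ratios kept their direction with FPKM in place of CPM, with the block and with 1 library left out.

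Over all genes, the number with an adjusted p under 0.05, 0 in edgeR's test (2294 at an unadjusted p under 0.05), was 965 by DESeq2, 956 by voom, 5 and 6 by limma on log2(FPKM + 1) and log2(FPKM + 0.1), and 1 with the replicate block. Of the 30 genes it was 6 by DESeq2 and 6 by voom. DESeq2 with 1 library left out, chosen after seeing the data, called 2102, 623 and 888 genes when CONT replicate 1, 2 or 3 was absent, among them 12, 3 and 6 of the 30. When CAC replicate 1, 2 or 3 was absent, it called 1506, 696 and 615 genes, among them 9, 3 and 3 of the 30. The number at an unadjusted p under 0.05 over all genes was 4920 by voom and 1384 to 3032 with 1 library left out. Among the 30 genes, voom gave 5 lower ones (16.0% of all genes) and the length offset 1 (4.76%). With 1 library left out there were 2 to 10 higher ones (3.55% to 7.3% of all genes) and 1 to 3 lower ones. Lower genes made up 3.69% to 8.28% of all genes in those fits that left out CONT replicate 1 or a CAC replicate. CAC lay entirely below CONT in 3 to 5 genes, with 5 without CONT replicate 1 (19.6% of all genes). For the other pathway genes, voom gave 18 higher ones (12.4% of all genes). The numbers of lower ones were 2, 2 and 1 by limma on log2(FPKM + 1), on log2(FPKM + 0.1) and on log2(FPKM + 1) without a filter. The share of all genes called lower by limma is not given here, so these numbers have no background. With 1 library left out there were 6 to 14 higher ones (3.55% to 7.3% of all genes) and 1 to 6 lower ones, against the same shares as above. The median of the 30 genes was 0.23 without the filter, 0.27 with the length offset and 0.18 to 0.26 with 1 library left out.

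Replicate numbers did not pair the libraries: same-numbered CONT and CAC libraries correlated at 0.31, -0.15 and -0.22 in their deviations from the group means. With the replicate block, 6 of the 30 genes were higher (5.23% of all genes) and 2 lower (6.29%) at an unadjusted p under 0.05, and of the other pathway genes 3 were lower. The common dispersion was 0.265 with 3 libraries a group. Counts were low for Me3 and Slc25a13, which had 17 to 186 reads per library.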

Other observations

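The spread among mice differed from gene to gene. The coefficient of variation of the CPM values ran from 3.56% (Idh1) to 65.0% (Slc25a13) in CONT and from 1.27% (Suclg1) to 64.1% (Slc25a10) in CAC. Idh3b, Ogdh and Suclg1 were tight in CAC, at 1.39%, 2.13% and 1.27%, and Mdh1, Aco1 and Glud1 were wide there, at 54.3%, 44.5% and 38.7%, against 13.5%, 28.4% and 11.8% in CONT. Got2 and Pcx varied more in CONT, at 50.5% and 35.3%, than in CAC, at 7.72% and 13.5%. Of the 17 genes whose groups did not overlap, CAC replicate 1 was the CAC library nearest to the controls in 10, replicate 2 in 5 and replicate 3 in 2. These were 7, 5 and 2 of the 14 higher genes and 3, 0 and 0 of the 3 lower ones. The shares over all genes are not given here, so these counts have no background. Lep, the leptin gene of adipocytes, had 7820, 9335 and 9154 reads in CONT. It had 12457 reads in CAC replicate 1 and 99 and 11 reads in CAC replicates 2 and 3. These differences in spread were not tested.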
